A study of Macaca mulatta with 15 samples.

Results

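CD8 memory T cells were compared with CD4 memory T cells from the blood of 2 rhesus macaques. The comparison used 8 of the 15 RNA-seq libraries of the series, which are all 4 CD8 memory and all 4 CD4 memory libraries. These libraries were picked by the labelled cell type alone, with no measured value in the rule. The comparison itself and the gene lists were chosen with earlier results of these data known. Each animal, RhDBCb and RhM22, gave both subsets before treatment and again after it, so the 4 draws (animal by time) each hold 1 library of each lineage. The labels describe the animals as healthy. The libraries labelled before came from untreated animals. The libraries labelled after came from the same animals given 2-hydroxypropyl-beta-cyclodextrin, a ring-shaped sugar that binds cholesterol, as a 15% (w/w) solution of Kleptose HBP injected under the skin at 1 ml per kg per day for up to 120 days. These libraries include no untreated animal followed over the same time. The other 7 libraries are naive CD4 and naive CD8 T cells of the same draws (1 draw, RhDBCb after, has no naive CD8 library among the 15). How the subsets were sorted is not given in the sources used here.

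Mature T cells carry either CD4, which binds MHC class II, or CD8, which binds MHC class I, and the choice is made in the thymus, where ZBTB7B (ThPOK) favours the CD4 fate and RUNX3 the CD8 fate. Memory CD8 cells are known for killing through perforin and granzymes and for receptors shared with natural killer (NK) cells. Memory CD4 cells hold helper, follicular helper and FOXP3-positive regulatory cells, which act mainly through surface ligands and cytokines.

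The 8 memory libraries held 55024208 to 69889188 assigned read counts each. On a principal component analysis the first axis (38.8% of the variance) ordered the libraries by animal, from -117 to 13.0 in RhDBCb and from 36.3 to 71.7 in RhM22. Within each draw CD8 memory also lay above CD4 memory on that axis. The second axis (26%) separated the lineages, with CD4 memory at 25.3 to 62.6 and CD8 memory at -82.1 to -12.6. Within each lineage RhM22 lay above RhDBCb on the second axis, so neither axis held animal or lineage alone. The labels held for the co-receptors. CD4 stood at 267 to 539 CPM (read counts scaled to library size, with TMM factors) in CD4 memory and at 0.201 to 1.44 in CD8 memory. CD8A, the alpha chain of CD8, stood at 650 to 813 CPM in CD8 memory and at 1.56 to 3.53 in CD4 memory. The T cell receptor chains CD3D, CD3E, CD3G and CD247 did not pass the test between the lineages (log2 differences of -0.13, -0.39, -0.16 and -0.13). CPM values set beside naive cells are scaled over all 15 libraries. On that scale S100A4, a gene raised in antigen-experienced cells, was at 312.5 to 2268 CPM in the memory libraries and at 18.4 to 105 in the naive ones. CCR7, the lymph node homing receptor of naive and central memory cells, was at 3010 to 9466 CPM in the memory libraries.

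The CD8 memory library of RhDBCb before treatment stood apart from the other 3 CD8 memory libraries. The proliferation gene MKI67 was at 111 CPM there and at 5.61 to 10.7 in the other 3. S100A4 was at 2187 CPM there against 309 to 445, and the integrin chain ITGB1 was at 3820 against 1069 to 1166. Without that library 718 genes were called in place of 879, 607 of them shared with the same direction. Leaving it out also removes its CD4 memory partner from the comparison, because libraries were paired by draw. In bulk RNA, fewer cells of a type and less RNA per cell cannot be told apart, which holds for every level below.

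With draws as blocks, 12398 genes passed the low-count filter, and 879 of them (7.09%) were called, that is, had a Benjamini-Hochberg adjusted p under 0.05 by edgeR's quasi-likelihood test. Of these, 498 (4.02%) were higher in CD8 memory and 381 (3.07%) were lower. Higher genes moved further, with a median log2 difference of 1.69 against -1.28 for lower genes, and 66 higher genes against 14 lower ones differed at least 16-fold. All but 2 of the called genes, 877, moved the same way in all 4 draws. The 4 CD8 memory values lay wholly above the 4 CD4 memory values in 691 of the tested genes (5.57%) and wholly below them in 682 (5.5%), and 665 of the called genes were among these. In 33 of the called genes, 29 higher and 4 lower, no library of the other lineage reached 10 counts, so that the filter was passed through 1 lineage only. The median log2 difference of all tested genes was -0.02.

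**Figure D1:**
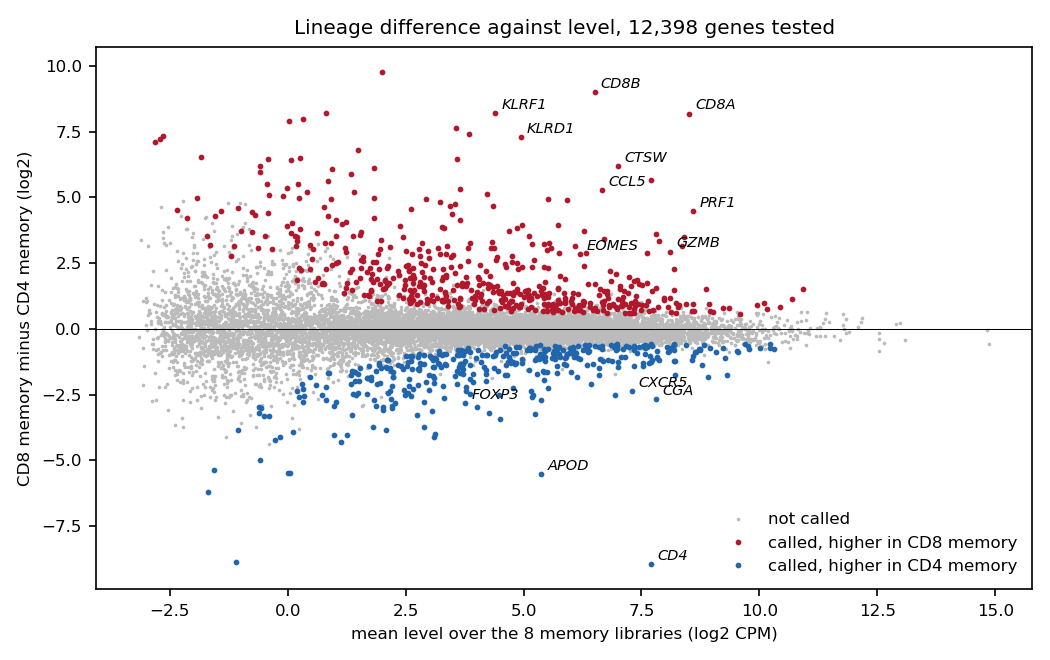
Each point is 1 of the 12398 genes tested, with its mean level over the 8 memory libraries (log2 CPM) on the x axis and the CD8 memory minus CD4 memory log2 difference on the y axis. Red points (498) were called higher in CD8 memory and blue points (381) called lower, and 201 red against 92 blue points lie at least 4-fold from 0.

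The count rests unevenly on the animals. Leaving out a library of RhM22 before treatment gave 403 calls (the CD4 memory library) or 402 (the CD8 memory library), and leaving out one of RhM22 after treatment gave 573 or 560, whereas the 4 fits without a library of RhDBCb gave 635 to 718. The 4 libraries of RhDBCb alone gave 388 calls and the 4 of RhM22 alone 1636. These sets share no library, and 302 genes were called in the same direction in both, which is 77.8% of the RhDBCb calls and 18.5% of the RhM22 calls, while 2 genes were called in opposite directions. The 4 libraries before treatment alone gave 357 calls and the 4 after it alone 259, with 190 genes called the same way in both and 0 called in opposite directions. The p-values measure the spread between these 4 draws of 2 animals.

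By the naming rule, 15 genes are described in each direction (called, same direction in all 4 draws, mean of at least 5 CPM, greatest fold). None of these 30 overlapped between the lineages, as the plot of named genes by library shows, and 29 of them kept the call when any 1 library was left out, the exception being RASGRF2. Other genes named below as called between the memory lineages also kept the call in all 8 such fits unless stated. These 8 fits come in 4 pairs that remove the same draw from the comparison, so they amount to 4 checks and not 8. Of the genes named only in the comparison with naive cells, SLC2A1 was followed in this way, and its call between the memory lineages (adjusted p = 0.0169) was lost without any one of the 4 RhM22 memory libraries (0.0506 to 0.0819). The others were not followed. Values of 4 libraries are given below in the order RhDBCb before, RhDBCb after, RhM22 before, RhM22 after.

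**Figure D2:**
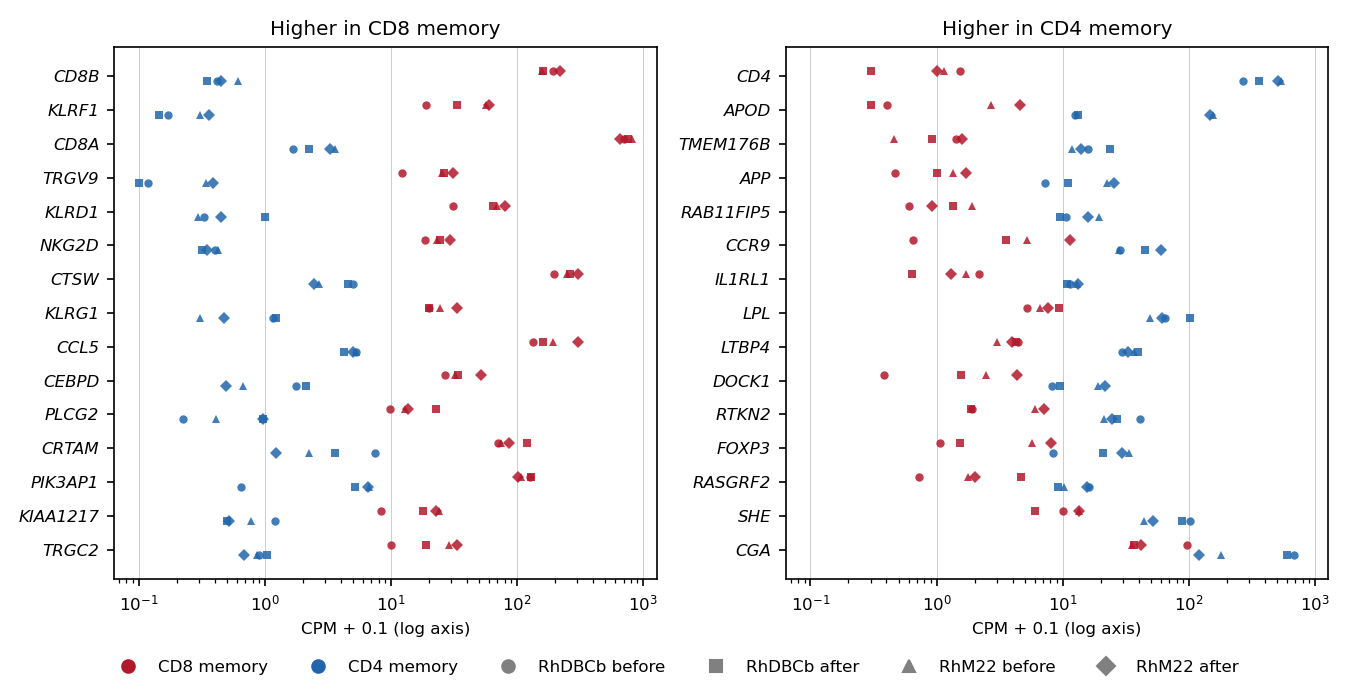
CPM + 0.1 on a log axis for the 15 genes with the greatest log2 difference in each direction (left, higher in CD8 memory; right, higher in CD4 memory), 1 point for each of the 8 libraries, coloured by lineage and shaped by draw. In every gene shown the 4 red and the 4 blue points do not overlap, and CD8B and CD4 lie furthest apart (log2 differences of 8.99 and -8.96).

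CD8B, the beta chain of CD8, was at 193, 159, 156 and 217 CPM in CD8 memory and at 0.319, 0.246, 0.508 and 0.348 in CD4 memory, a log2 difference of 8.99 ± 0.28 (SE; adjusted p = 4.53e-06). CD8A differed by 8.18 ± 0.28 (adjusted p = 5.28e-06) and CD4 by -8.96 ± 0.51 (adjusted p = 4.82e-05). Neither CD8 gene overlapped between the lineages. Within the CD8 subsets, the ratio of CD8B to CD8A in FPKM, which is scaled by gene length, was 0.0293 to 0.0510 in the 4 CD8 memory libraries and 0.0583 to 0.1 in the 3 CD8 naive libraries. These ranges did not overlap.

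The regulators that set the co-receptor choice differed less than the co-receptors. Of 15 such genes that passed the filter, 1 was called higher and 1 lower, and their median log2 difference was -0.11. Over all tested genes 4.02% were called higher and 3.07% lower. Every list count below is to be read beside these shares. RUNX3, which keeps CD4 silent in CD8 cells, was at 250, 330, 539 and 430 CPM in CD8 memory and at 97.1, 142, 311 and 301 in CD4 memory, a rise of 0.97 ± 0.18 (adjusted p = 0.015). CD8 memory exceeded CD4 memory in each draw, but the ranges overlapped across animals, and the call was lost without either RhM22 before library (adjusted p of 0.0542 without the CD4 and 0.0519 without the CD8 library). ZBTB7B was low in both lineages and overlapped, at 6.07, 4.95, 5.97 and 5.72 CPM in CD8 memory and 3.74, 7.99, 5.77 and 6.61 in CD4 memory (log2 difference -0.04 ± 0.28, adjusted p = 0.956). LEF1, a factor of naive and early memory cells, was at 71.2, 97.4, 206 and 218 CPM in CD8 memory and 518, 392, 426 and 455 in CD4 memory. It fell by 1.74 ± 0.31 on the log2 scale without overlap (adjusted p = 0.0117), and the adjusted p was 0.0516 or 0.0505 without the CD4 or the CD8 memory library of RhDBCb after treatment. TCF7, its close relative, had a log2 difference of -0.09 (adjusted p = 0.781).

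The machinery of cytotoxic granules was higher in CD8 memory. Of 20 granule genes that passed the filter, 12 rose, 0 fell and 8 did not pass the test, with a median log2 difference of 2.55. PRF1, the pore-forming perforin, was at 265, 439, 1180 and 1111 CPM in CD8 memory and at 27.2, 29.5, 26.7 and 28.3 in CD4 memory, a rise of 4.49 ± 0.40 (adjusted p = 0.000483). The CD4 memory values were nearly the same in all 4 draws, while both CD8 memory values of RhM22 were well above those of RhDBCb. Granzymes, the serine proteases that perforin delivers, rose too. GZMB was at 170, 300, 576 and 931 CPM against 42.7, 40.1, 74.5 and 62.0 (2.94 ± 0.29, adjusted p = 0.00084). GZMK, a trypsin-like granzyme of early memory CD8 cells, rose by 2.88 ± 0.21, GZMM by 3.35 ± 0.21 and GZMA by 2.33 ± 0.25, and none of the 4 overlapped between the lineages.

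Other granule proteins followed. CTSW, a protease of the granule compartment, was at 196, 261, 248 and 306 CPM in CD8 memory and at 4.89, 4.45, 2.60 and 2.34 in CD4 memory (6.19 ± 0.33, adjusted p = 2.94e-05). GNLY (granulysin, a lytic peptide) rose by 3.59 ± 0.24 (adjusted p = 0.000105), NKG7, a granule membrane protein, by 3.48 ± 0.18 (adjusted p = 2.94e-05) and CST7, an inhibitor of granule proteases, by 3.07 ± 0.22 (adjusted p = 0.000169). Compared per length, PRF1 had the highest mean level of the granule genes named here in CD8 memory, at 155 ± 98.3 FPKM (SD, n = 4), followed by NKG7 at 120 ± 35.6 and CTSW at 68.9 ± 13.2. GZMB stood at 15.7 ± 10.8 FPKM and GZMA at 2.83 ± 0.878. The spread of PRF1 and NKG7 over the 4 libraries was wider than the gap between them. FASLG, the death receptor ligand, was at 46.5, 33.5, 48.4 and 55.3 CPM in CD8 memory and at 16.8, 8.43, 3.95 and 3.30 in CD4 memory (2.77 ± 0.45, adjusted p = 0.008).

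Receptors first known from NK cells were also higher in CD8 memory, 13 of the 17 that passed the filter, with 0 lower and a median log2 difference of 2.57. Of these, NCR1 passed the filter through CD8 memory only, and of the 16 that reached the minimum count in both lineages 12 were called. KLRF1, which codes for the activating receptor NKp80, was at 18.9, 33.2, 56.5 and 60.0 CPM in CD8 memory and at 0.0709, 0.0462, 0.209 and 0.261 in CD4 memory (8.21 ± 0.31, adjusted p = 6.47e-06). KLRD1 (CD94, which pairs with NKG2 chains) was at 31.1, 63.8, 68.9 and 80.6 CPM against 0.231, 0.908, 0.194 and 0.348 (7.30 ± 0.41, adjusted p = 4.82e-05). NKG2D, the stress ligand receptor also called KLRK1, was at 18.7, 24.4, 23.2 and 29.4 CPM against 0.301, 0.215, 0.329 and 0.247 (6.44 ± 0.28, adjusted p = 1.57e-05).

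In all 3 of these genes the CD8 memory library of RhDBCb before treatment had the lowest CD8 memory value. KLRG1, an inhibitory receptor of effector cells, was at 19.9, 20.0, 24.5 and 33 CPM against 1.06, 1.12, 0.209 and 0.377 (5.30 ± 0.53, adjusted p = 0.000844). CRTAM, an adhesion receptor of cytotoxic cells, rose by 4.92 ± 0.46 (adjusted p = 0.000638). CD96, a receptor of the nectin family, was at 217 to 245 CPM in CD8 memory and at 64.7 to 104 in CD4 memory (1.64 ± 0.18, adjusted p = 0.00138), so that it was well expressed in both lineages.

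Markers of cells that a CD8 gate could also hold were given the same count. Of 8 NK cell markers that passed the filter, 4 rose (KLRF1, NCR1, KIR2DL4 and TYROBP). NCR1 reached the minimum count in CD8 memory only, and of the 7 that reached it in both lineages 3 rose. The summed level of the 10 found in the table was 57.6 to 113 CPM in CD8 memory and 9.29 to 22.0 in CD4 memory. NCR1 (NKp46), a defining NK cell receptor, was at 0.688 to 1.94 CPM in CD8 memory, FCER1G at no more than 0.218 and CLIC3 at 0. KIR2DL4, one of a family of near-identical genes whose reads may be shared, was at 0.788 and 0.805 CPM in the CD8 memory libraries of RhDBCb and at 11.2 and 13.4 in those of RhM22. Its call was lost without either RhM22 before library or without the CD8 memory library of RhM22 after treatment (adjusted p of 0.0876 to 0.111), and stood at 0.0497 without the CD4 memory library of that draw. Its ranges overlapped between the lineages.

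The gamma delta T cell receptor genes TRGC2 and TRGV9 were both higher in CD8 memory. TRGC2, a constant segment of the gamma chain, was at 9.96, 18.7, 28.9 and 33.4 CPM against 0.798, 0.939, 0.762 and 0.581 (4.76 ± 0.39, adjusted p = 0.000326). TRGV9 was at 12.3, 26.3, 25.3 and 31.2 CPM against 0.0177, 0, 0.239 and 0.290. Receptor segments resemble each other and their read assignment is uncertain. The list of 7 gamma delta markers also named delta chain genes. Only 3 of the 7 were found by symbol, and all 3 passed the filter. Of these, TRGC2 and TRGV9 were called and 1 was not, so most delta chain genes were not tested.

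Of 10 markers of mucosal-associated invariant T (MAIT) cells, which recognise vitamin B metabolites, 9 rose and 0 fell (median 2.48). ZBTB16 (PLZF, the factor of innate-like T cells) was at 60.8, 96.0, 86.1 and 137 CPM in CD8 memory and at 18.8, 14.1, 7.5 and 11.5 in CD4 memory (2.90 ± 0.33, adjusted p = 0.00142). IL23R, a receptor subunit of type 17 cells, was at 25.4, 53.0, 33.8 and 34.2 CPM against 4.36, 5.91, 2.75 and 2.25 (3.31 ± 0.27, adjusted p = 0.000283). KLRB1 (CD161) rose by 3.01 ± 0.23 (adjusted p = 0.00025), and SLC4A10, a transporter typical of MAIT cells, by 2.39 ± 0.43 (adjusted p = 0.0139), with an adjusted p of 0.0534 without the CD8 memory library of RhM22 before treatment. The MAIT count was 6 to 8 over the fits without 1 library, with 6 when that library was left out. IL23R and KLRB1 are also on the list of type 17 genes, of which 16 were tested. On that list 6 rose and 3 fell (median -0.59). CEBPD, on the list of MAIT markers, rose by 5.13 ± 0.54 (adjusted p = 0.00109). The part of NK, gamma delta or MAIT cells in the cytotoxic and receptor genes above was not tested.

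Transcription factors of effector cells rose in 10 of 21 cases and fell in 0 (median 0.67). ZEB2, which drives terminal effector differentiation, was at 26.3, 48.1, 72.6 and 45.1 CPM in CD8 memory and 2.89, 1.68, 5.25 and 5.05 in CD4 memory (3.73 ± 0.31, adjusted p = 0.000334). IRF8 was at 59.7, 144, 199 and 157 CPM against 6.51, 22.8, 22.7 and 25.6 (2.90 ± 0.18, adjusted p = 7.96e-05). EOMES, the T-box factor of memory CD8 cells, was at 62.1, 184, 145 and 129 CPM against 12.4, 11.5, 26.9 and 19.8 (2.85 ± 0.29, adjusted p = 0.000922).

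None of these 3 overlapped between the lineages. TBX21 (T-bet, the T-box factor of type 1 cells) differed less, at 28.2, 11.1, 14.7 and 16.5 CPM against 8.90, 9.14, 6.88 and 5.97 (1.13 ± 0.26, adjusted p = 0.0374). Its call was lost in 6 of the 8 fits without 1 library (adjusted p of 0.0951 to 0.124), and it was kept without either RhDBCb after library (0.0100 and 0.0104). HOPX, another factor on the effector list, rose by 1.84 ± 0.31 (adjusted p = 0.00983). However, HOPX was at 586 CPM in the CD8 memory library of RhDBCb before treatment and at 134 to 186 in the other 3. Without a library of RhM22 before treatment the effector factor count was 6.

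Genes of type 1 immunity rose in 8 of 10 cases and fell in 0 (median 1.32). IL18RAP, a subunit of the interleukin 18 receptor, was at 29.8, 44.6, 91.9 and 69.7 CPM in CD8 memory and 1.88, 2.31, 6.43 and 5.07 in CD4 memory (3.97 ± 0.19, adjusted p = 1.75e-05). IL12RB2, the interleukin 12 receptor chain induced in type 1 cells, rose by 2.39 ± 0.37 (adjusted p = 0.00637) and STAT4, which signals from it, by 1.56 ± 0.15 (adjusted p = 0.000623). IFNG (interferon gamma) was low in both lineages, at 3.71, 3.27, 4.90 and 4.90 CPM against 1.28, 0.369, 0.882 and 1.22. It rose by 2.27 ± 0.38 (adjusted p = 0.00898; 0.0599 without the CD8 memory library of RhM22 before treatment). The count of type 1 genes was 5 without a library of RhM22 after treatment or without the CD4 memory library of RhM22 before it, and 4 without the CD8 memory library of that draw.

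Of 17 cytokine genes that passed the filter 7 rose and 2 fell (median 0.67), and 4 of those that rose were chemokines. CCL5, which draws T cells and monocytes, was at 133, 159, 193 and 306 CPM in CD8 memory and 5.23, 4.19, 5.23 and 4.95 in CD4 memory (5.27 ± 0.25, adjusted p = 1.75e-05). CCL3 rose by 4.94 ± 0.57 (adjusted p = 0.00153) and XCL1, which attracts cross-presenting dendritic cells, by 3.26 ± 0.53 (adjusted p = 0.00876), both at under 7 CPM. CCL4L1, whose reads a near-identical copy may share, rose by 3.26 ± 0.24. IL21, the cytokine of follicular helper cells, and IL10, an inhibitory cytokine, were lower in CD8 memory (-2.99 and -1.77), both at under 6 CPM in every library. IL21 lost its call in all 8 fits without 1 library (adjusted p of 0.0593 to 0.155), and IL10 in 5 of them (up to 0.0788, without the CD4 memory library of RhM22 before treatment).

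**Figure D3:**
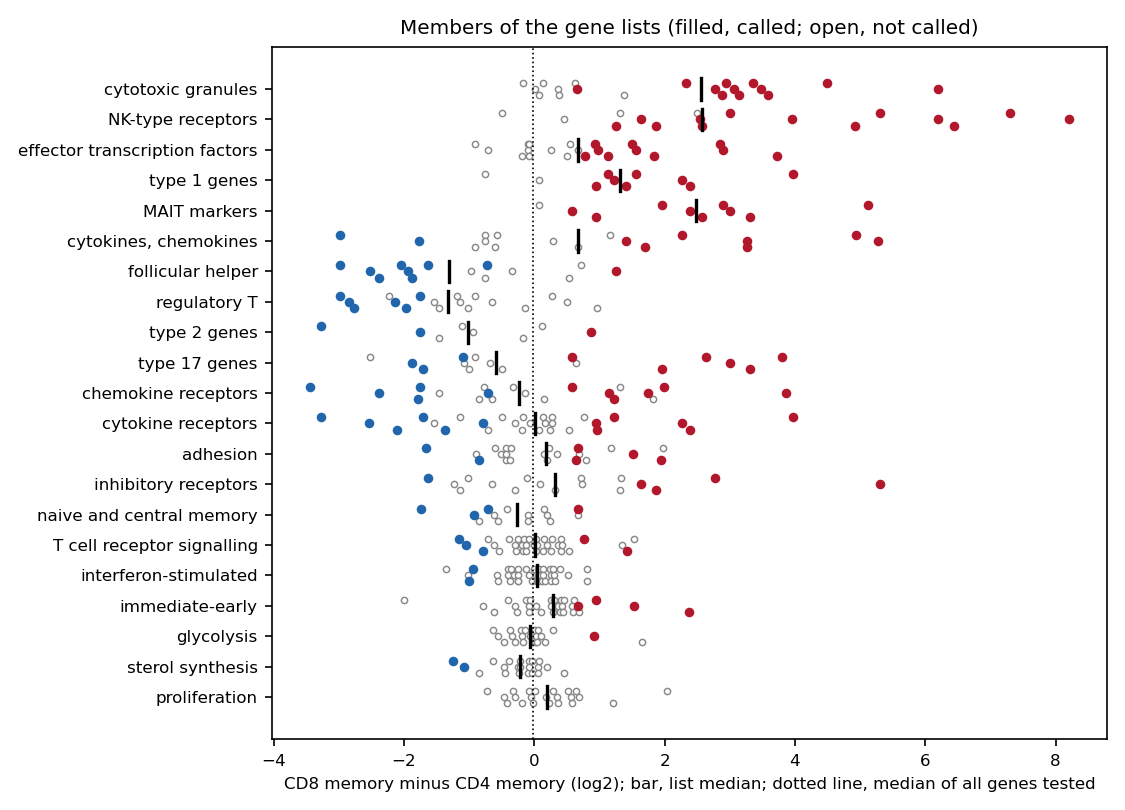
Each point is 1 member of a gene list that passed the filter, at its CD8 memory minus CD4 memory log2 difference on the x axis; filled points were called (red higher, blue lower in CD8 memory), open points were not, bars are list medians and the dotted line is the median of all genes (-0.02). Granule genes (median 2.55) and NK-type receptors (2.57) lie to the right, follicular helper (-1.30) and regulatory T genes (-1.32) to the left, and T cell receptor signalling (0.01) around 0.

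Helper genes were among those higher in CD4 memory. Of 14 genes of follicular helper cells, which help B cells make antibody, 8 fell in CD8 memory and 1 rose (SLAMF6), with a median of -1.30. CXCR5, the receptor that leads cells into B cell follicles, was at 46.8, 62.5, 44.7 and 50.3 CPM in CD8 memory and at 275, 290, 267 and 227 in CD4 memory (-2.38 ± 0.16, adjusted p = 0.000107). CD40LG, the ligand through which helper cells license B cells and dendritic cells, was at 18.7, 8.15, 2.44 and 4.25 CPM against 35.2, 37.2, 34.8 and 37.3 (-2.52 ± 0.45, adjusted p = 0.0121). CD40LG was steady in CD4 memory and widely spread in CD8 memory, with the highest value in the library of RhDBCb before treatment.

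MAF, a factor of helper cells, and BTLA, an inhibitory receptor, fell by 1.87 ± 0.37 (adjusted p = 0.0211) and 1.63 ± 0.32 (adjusted p = 0.0189). Both lost their calls without either RhM22 before library or either RhDBCb after library, MAF also without either RhM22 after library, with adjusted p of up to 0.0874 for MAF and 0.125 for BTLA. The follicular helper count was 3 without any one of the RhM22 before or RhDBCb after libraries, and 5 without either RhM22 after library. BCL6, the defining factor of follicular helper cells, did not pass the test (-0.34, adjusted p = 0.369). Their SLAM receptor SLAMF6 rose by 1.26 (adjusted p = 0.0225), and lost its call without the CD4 or the CD8 memory library of RhDBCb before treatment (0.0577 and 0.0562).

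Regulatory T cell genes fell in 6 of 18 cases and rose in 0 (median -1.32). FOXP3, the factor that defines regulatory T cells, was at 0.956, 1.44, 5.61 and 7.93 CPM in CD8 memory and 8.30, 20.7, 33.7 and 29.7 in CD4 memory (-2.84 ± 0.32, adjusted p = 0.00153). The groups did not overlap, though the lowest CD4 memory value was close to the highest CD8 memory value. RTKN2, a gene raised in regulatory T cells, was at 1.81, 1.76, 5.89 and 6.95 CPM against 40.6, 26.8, 21.1 and 24.6 (-2.99 ± 0.50, adjusted p = 0.0094).

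IL2RA and CTLA4, which regulatory cells share with activated T cells, had log2 differences of -1.53 and -1.02 and did not pass the test (adjusted p of 0.127 and 0.0572). The regulatory T count was 9 without either library of RhDBCb before treatment. It was 3 without the CD4 and 4 without the CD8 memory library of RhM22 before treatment.

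Several of the genes with the greatest excess in CD4 memory belong to no helper list. APOD, a lipocalin that carries lipids, was at 0.302, 0.201, 2.61 and 4.46 CPM in CD8 memory and 12.4, 13.0, 154 and 146 in CD4 memory (-5.53 ± 0.25, adjusted p = 1.57e-05). In both lineages RhM22 was far above RhDBCb, and CD4 memory exceeded CD8 memory in all 4 draws. CGA, the alpha chain shared by glycoprotein hormones, was at 96.5, 36.4, 35.2 and 42.0 CPM against 688, 595, 179 and 120 (-2.67 ± 0.37, adjusted p = 0.00395). For CGA, RhDBCb was above RhM22 in CD4 memory, while in CD8 memory the animals overlapped. LPL, the lipase of lipoprotein triglycerides, was at 5.15, 9.19, 6.56 and 7.55 CPM against 64.0, 102, 49.2 and 61.0 (-3.26 ± 0.20, adjusted p = 7.96e-05).

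TMEM176B, an ion channel of intracellular membranes, fell by 4.13 ± 0.38 (adjusted p = 0.000516) and APP, the amyloid precursor protein, by 3.98 ± 0.24 (adjusted p = 7.96e-05). IL1RL1, the interleukin 33 receptor, is on the list of T helper 2 genes. Of the 8 genes of that list that passed the filter, 1 rose and 2 fell (median -1.02). IL1RL1 was at 2.06, 0.537, 1.6 and 1.21 CPM in CD8 memory and 11.4, 10.7, 12.9 and 13.2 in CD4 memory (-3.28 ± 0.34, adjusted p = 0.00101). RAB11FIP5, LTBP4, DOCK1, SHE and RASGRF2 fell by 2.72 to 3.72 on the log2 scale. RASGRF2, a Ras activator, had an adjusted p of 0.0185, and of 0.0503 without the CD4 memory library of RhM22 after treatment and 0.0530 without the CD4 memory library of RhM22 before it. Its CD8 memory values were 0.620, 4.54, 1.68 and 1.93 CPM and its CD4 memory values 15.9, 9.03, 10.2 and 15.4, with no overlap.

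On the CD8 side, genes outside the lists included signalling adaptors. PIK3AP1, which links receptors to PI3 kinase, was at 127, 130, 108 and 102 CPM in CD8 memory and 0.550, 5.11, 6.58 and 6.43 in CD4 memory (4.91 ± 0.61, adjusted p = 0.00229). PLCG2, the phospholipase of B and NK cell receptor signalling, rose by 4.95 ± 0.39 (adjusted p = 0.000273), and KIAA1217 by 4.82 ± 0.50 (adjusted p = 0.00104). None of the 3 overlapped between the lineages.

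Receptors that direct migration were split between the lineages. Of 20 chemokine and related receptors, 6 rose and 5 fell (median -0.23). CXCR3, a receptor of inflamed tissue, rose by 1.23 ± 0.21 (adjusted p = 0.0104). CXCR6, a receptor of tissue-resident cells, rose by 1.99 ± 0.30 (adjusted p = 0.00603), and S1PR5, which lets effector cells leave tissue, was at 6.86, 20.9, 21.1 and 24.0 CPM against 2.09, 0.754, 1.33 and 0.857 (3.86 ± 0.54, adjusted p = 0.00401). The gut-homing receptors CCR9 and GPR15 were lower in CD8 memory. CCR9, which leads to the small intestine, was at 0.553, 3.47, 5.07 and 11.4 CPM against 28.4, 45.1, 28.1 and 60.4 (-3.44 ± 0.51, adjusted p = 0.00562), and GPR15 fell by 1.78 ± 0.29 (adjusted p = 0.00904). CCR4, a receptor of skin-homing and regulatory cells, fell by 1.75 ± 0.22 (adjusted p = 0.00266). CCR7 had a log2 difference of -0.85 and an adjusted p of 0.0901.

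Of 28 cytokine receptors 6 were higher and 6 lower (median 0.00). In each of the 8 fits without 1 library 4 were higher and 4 to 7 lower, the 7 without the CD8 memory library of RhDBCb before treatment, where the median was -0.23. IL6R and IL6ST, the binding and signalling chains of the interleukin 6 receptor, both fell. IL6R was at 6.14, 8.95, 11.7 and 17.4 CPM in CD8 memory and 35.5, 55.5, 78.4 and 80.6 in CD4 memory (-2.53 ± 0.18, adjusted p = 0.000142). IL6ST (gp130) was at 19.6, 25.2, 54.1 and 33.3 CPM against 118, 84.7, 194 and 159 (-2.11 ± 0.19, adjusted p = 0.000483). Neither chain overlapped between the lineages. TGFBR3, a co-receptor for transforming growth factor beta, was at 512, 452, 478 and 490 CPM in CD8 memory and 86.2, 75.6, 145 and 107 in CD4 memory (2.27 ± 0.19, adjusted p = 0.000334).

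Lists of general T cell programmes are set beside the 7.09% called over all genes. Of 34 T cell receptor signalling genes 2 rose and 3 fell (median 0.01), among them the phosphatase PTPN22, which rose by 1.43 ± 0.16 (adjusted p = 0.0015). Without either RhM22 before library 1 of these genes rose and 0 fell, and without either RhDBCb after library 1 rose and 1 fell. Of 40 interferon-stimulated genes 0 rose and 2 fell, MX1 (-0.94) and RSAD2 (-1.002), of which neither was called without a library of RhM22 before treatment (adjusted p of 0.0754 to 0.262). RSAD2 was also not called without a library of RhM22 after treatment or of RhDBCb before it (0.112 to 0.161). Of 21 genes of sterol synthesis, the pathway that makes cholesterol, 0 rose and 2 fell, and 1 fell in each of the 6 fits without a library of RhDBCb before treatment or of RhM22. SQLE (squalene epoxidase) was at 50.5, 33.3, 36.3 and 32.1 CPM against 121, 76.5, 61.7 and 68.3 (-1.08 ± 0.16, adjusted p = 0.00535).

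None of 22 proliferation genes was called by edgeR (1 at an unadjusted p under 0.05), and 1 was called by DESeq2, higher. Their median log2 difference was 0.20, and -0.20 without the CD8 memory library of RhDBCb before treatment. None of 7 B cell, 9 myeloid or 11 platelet markers that passed the filter was called by edgeR, with 1, 2 and 0 of them at an unadjusted p under 0.05. By DESeq2 1 B cell marker was higher, 1 myeloid marker lower and 0 platelet markers called. The summed level of the 13 myeloid markers in the table was 9.31 to 48.3 CPM in CD8 memory and 12.1 to 48.5 in CD4 memory, and that of the 12 platelet markers 4.71 to 44.6 and 6.56 to 41.7. The 11 B cell markers summed to 31.0 to 58.6 CPM in CD8 memory and 18.9 to 35.2 in CD4 memory. The 7 erythroid markers summed to 2.99 to 9.02 CPM in CD8 memory and 1.21 to 4.85 in CD4 memory. Of the 2 erythroid markers that passed the filter 0 were called by edgeR, with 1 at an unadjusted p under 0.05 and a median log2 difference of 1.37, and 1 was called higher by DESeq2. The part of these cells in the lineage differences was not tested.

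Whether the lineage difference itself changed with treatment or between the animals was tested in the same 8 libraries. For time, 0 of 12398 genes (0%) were called by edgeR or by DESeq2, with 72 (0.581%) at an unadjusted p under 0.05 by edgeR and 146 by DESeq2. The 5 genes of smallest p, ACSL6, MMP2, VCAN, SH2B2 and KCNIP2, each had an adjusted p of 1 and stayed under 4 CPM in every library. On simulated counts with this design 40% of 4-fold and 1% of 2-fold changes were recovered, so most changes of such sizes were not detectable. The simulated counts held no differences between draws or animals, so the recovery in the real libraries may be another. For PRF1 the difference after treatment minus that before it was 0.22 ± 0.73, for GZMB 0.94 ± 0.49 and for FOXP3 -0.01 ± 0.70 on the log2 scale.

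For animal, 0 genes (0%) were called by edgeR and 123 by DESeq2, with 999 (8.06%) at an unadjusted p under 0.05 by edgeR. Leaving out any 1 library of RhDBCb gave calls in edgeR, but such a fit holds a single RhDBCb draw with both lineages. Its spread comes from the RhM22 draws alone, so its calls cannot show a difference between the animals. The gene of smallest p was F5, coagulation factor V, at 32.2 and 16.7 CPM in the CD8 memory libraries of RhDBCb, 7.49 and 10.3 in those of RhM22, 17.3 and 10.9 in the CD4 memory libraries of RhDBCb and 38.1 and 46.3 in those of RhM22 (adjusted p = 0.487). F5 was thus higher in CD8 memory in both draws of RhDBCb and lower in both of RhM22. LSR, F13A1, NEU3 and PERP followed with the same adjusted p, and of these LSR, F13A1 and NEU3 also had opposite directions in the animals.

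**Figure D4:**
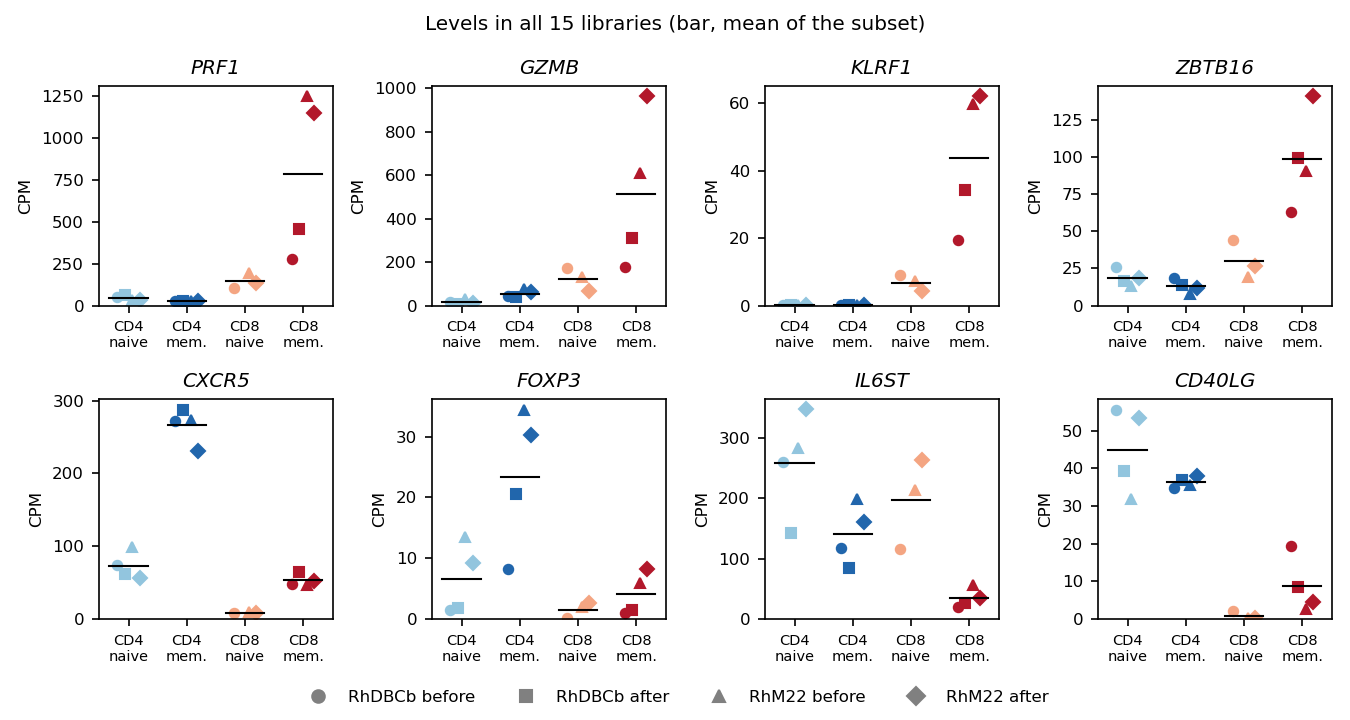
CPM of 8 genes (y axis, linear from 0) in each of the 15 libraries, grouped by subset on the x axis and shaped by draw, with bars at the subset means. PRF1, GZMB, KLRF1 and ZBTB16 are highest in CD8 memory, CXCR5 and FOXP3 in CD4 memory, IL6ST has its highest mean in CD4 naive cells, and CD40LG is high in both CD4 subsets.

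The naive libraries allow the question whether the lineages differ by the same amount in memory as in naive cells. In the fit of all 15 libraries 12 of 13503 genes (0.0889%) were called for the memory lineage difference minus the naive one, 9 above 0 (0.0667%) and 3 below (0.0222%), with 1138 (8.43%) at an unadjusted p under 0.05. The memory and naive comparisons share no library, and 510 of 13503 genes (3.78%) were called between the naive lineages. None of the co-receptor genes CD4, CD8A and CD8B passed this test. For PRF1 the lineage difference was 1.58 ± 0.43 in naive cells and larger in memory cells by 3.11 ± 0.58 (adjusted p = 0.0778). For ZBTB16 the excess over naive cells was 2.36 ± 0.40 (adjusted p = 0.0516), and for IRF8 1.76 ± 0.34 (adjusted p = 0.0822). CD40LG differed by -6.06 ± 0.61 in naive cells, and the memory difference was smaller by 3.57 ± 0.67 (adjusted p = 0.0778). KLRF1 was at 4.19 to 8.99 CPM in CD8 naive and 19.6 to 62.0 in CD8 memory libraries, and the lineage difference in naive cells was 6.17 ± 0.59.

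Of the 12 called genes, 8 met the rule for naming. LTBP4, a binding protein of latent transforming growth factor beta, was at 3.07 to 4.45 CPM in CD8 memory, 28.9 to 38.9 in CD4 memory, 0.620 to 1.38 in CD8 naive and 33.1 to 50.3 in CD4 naive cells, so the CD4 excess was smaller in memory by 2.34 ± 0.31 (adjusted p = 0.0143). CTSL, a lysosomal protease, also had a smaller CD4 excess in memory (2.26 ± 0.36, adjusted p = 0.0471). It was at 140 to 320 CPM in CD8 memory and 15.1 to 31.7 in CD8 naive cells, and, unlike LTBP4, was higher in CD4 memory than in CD4 naive cells in every draw. PTPN7, a phosphatase of MAP kinases in blood cells, was higher in CD8 than CD4 cells in memory, at 172 to 258 against 98.5 to 119 CPM, and lower in naive cells, at 38.4 to 54.0 against 63.7 to 81.1 (1.53 ± 0.18, adjusted p = 0.0141).

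SLC2A1 (the glucose transporter GLUT1) and ZC3H12A (an RNase that degrades cytokine transcripts) had CD8 minus CD4 differences that were greater in memory than in naive cells, by 1.22 ± 0.20 for SLC2A1 and 1.183 ± 0.19 for ZC3H12A (adjusted p of 0.0471 for both). The naive differences were -0.25 for SLC2A1 and 0.15 for ZC3H12A. SLC2A1 was at 63.6 to 159.5 CPM in CD8 memory and at 41.6 to 72.5 in the other 3 subsets, which overlap. ZC3H12A was at 92.3 to 179.5 CPM in CD8 memory and at 20.0 to 74.5 in the other 3 subsets, without overlap. RCAN3, a regulator of calcineurin, was at 19.3 to 33.1 CPM in CD8 memory and at 65.7 to 124 in the other 3 subsets (-1.41 ± 0.19, adjusted p = 0.0184). PFN2, an actin-binding profilin, was at 4.54 to 6.61 CPM in CD8 memory, 10.3 to 12.9 in CD4 memory, 19.8 to 34.1 in CD8 naive and 13.6 to 19.8 in CD4 naive cells (-1.72 ± 0.25, adjusted p = 0.0249). SFRP5, a secreted Wnt inhibitor, was highest in CD8 naive cells at 162 to 197 CPM and lowest in CD8 memory cells at 10.3 to 34.1 (-1.83 ± 0.30, adjusted p = 0.0471).

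This count moved with single libraries. It was 0 without the CD4 naive, CD4 memory or CD8 naive library of RhM22 before treatment or the CD8 naive library of RhM22 after it, and 2 without the CD8 memory library of RhM22 before or the CD4 naive library of RhM22 after treatment. It was 4 without the CD4 memory library of RhM22 after treatment, 6 without either CD4 memory library of RhDBCb, 20 without the CD8 naive library of RhDBCb before treatment and 44 without the CD8 memory library of that draw. Among the 8 named genes, PTPN7 was called in 11 of these 15 fits, LTBP4 in 10, RCAN3 and PFN2 in 8, CTSL in 4, SFRP5 and ZC3H12A in 3 and SLC2A1 in 2.

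**Figure D5:**
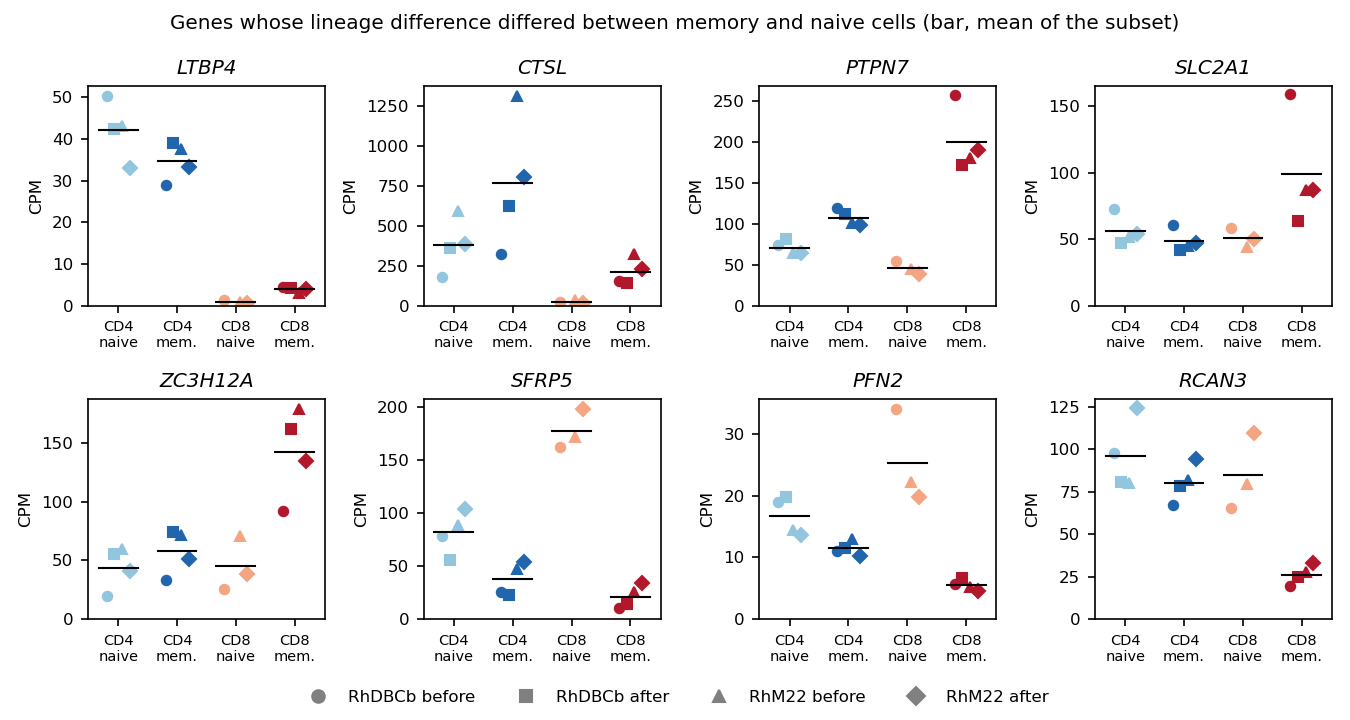
CPM (y axis, linear from 0) of the 8 named genes whose lineage difference was called different between memory and naive cells, in each of the 15 libraries, grouped by subset on the x axis and shaped by draw, with bars at the subset means. RCAN3 and PFN2 are lowest in CD8 memory, PTPN7 and ZC3H12A are highest there, and LTBP4 and CTSL are lowest in CD8 naive cells.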

How the data were processed

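RNA of blood T cell subsets was extracted and made into libraries from polyA RNA with RNeasy Micro and SMART-Seq v4, per the labels' protocols. The authors deposited expected counts and FPKM per gene from RSEM 1.3.3; cutadapt 1.18, STAR 2.7.6a and the build Mmul_10 (rheMac10) are listed per the submitters' processing notes. The expected counts deposited by the authors are not whole numbers and were rounded. The FPKM values, deposited by the authors in the same way, were used for levels between genes and for 1 alternative.

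Symbols came from the deposited table for 23407 of 34884 genes and from the reference name table for 933 more. Genes were filtered with filterByExpr (minimum count 10), scaled by TMM and tested with edgeR 4.0.16 (quasi-likelihood F test, R 4.3.3), with a term for each of the 4 draws and Benjamini-Hochberg adjustment over all genes tested; "called" means an adjusted p under 0.05. SE is the standard error of the log2 difference. The lineage by time, lineage by animal and memory minus naive differences were tested as interaction or contrast terms, the last in all 15 libraries. The draws pair the libraries by animal and time: the deviations of same-draw CD4 and CD8 memory libraries correlated across genes at 0.203 to 0.561.

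Named genes were, per direction, the 15 called genes of greatest fold that had a symbol, averaged 5 CPM or more and moved alike in all 4 draws, for the other differences up to 5 per direction or the 5 of smallest p, up to 4 called members per direction of each gene list, and defining markers. GZMA, GZMK, GZMM, CST7, FASLG, TCF7, CCR7, S100A4, ITGB1, the CD3 chains, BCL6, IL2RA and CTLA4, and other genes given with values outside this rule, were chosen after their values were seen. The comparison, members and lists were chosen with earlier results of these data known. On simulated counts of the 12398 genes of the lineage comparison, 48% of 2-fold and 88% of 4-fold changes were recovered, with 0 sign errors. The simulated counts held no differences between draws or animals. Alternatives included other scalings, filters and blocks, DESeq2 1.42.0, limma 3.58.1 on log2(FPKM + 1), and leaving out libraries, draws, times or animals. A result for 1 chemokine receptor is not reported here.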

Additional observations from a re-analysis of the deposited data

Results flagged for a closer look

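Among 276 groups of 4 libraries of 1 subset, 14 held a library far from the other 3; chance flags about 1 in 20 groups. The CD8 memory library of RhDBCb before treatment was the high one in 8 of them: 111 CPM for MKI67, 2187 for S100A4, 3820 for ITGB1, 586 for HOPX, 376 for GATA3, 113 for IL12RB1, 54.5 for CXCR6 and 96.5 for CGA. The CD8 memory library of RhDBCb after treatment was low for ITGAX, at 6.42 CPM. In CD4 memory, the RhDBCb before library was high for CD96 (104 CPM) and TOX (256 CPM) and low for IRF8 (6.51 CPM). The CD4 memory library of RhM22 before treatment was low for CCL4L1 (5.93 CPM) and high for NCR1 (0.120 CPM, with the other 3 at 0).

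For 12 genes the lineage difference in memory cells differed from that in naive cells by edgeR's test of the difference itself. The 8 of them that met the naming rule are given here. On the log2 scale, the memory minus naive value was 2.34 for LTBP4, 2.26 for CTSL, 1.53 for PTPN7, 1.22 for SLC2A1, 1.183 for ZC3H12A, -1.83 for SFRP5, -1.72 for PFN2 and -1.41 for RCAN3. What lies behind these values was not tested.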

How the results depend on the processing

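The 879 calls became 1702 with DESeq2, which held all 879, and 438 with limma on log2(FPKM + 1). Pairing by draw mattered: with no replicate block there were 382 calls. The before libraries alone gave 357 and the after libraries alone 259, and leaving out both libraries of RhM22 before or after treatment gave 399 or 552. RhDBCb alone gave 388 and RhM22 alone 1636, a split added after seeing the data. Leaving out 1 library, which takes its draw out of the comparison, gave 402 to 718. Of 3375 values of the 135 genes followed, 540 lost the call, and no gene called in either fit changed direction, while 7 genes that were not called (TOX, CD3G, MKI67, CD247, TCF7, GATA3 and ZBTB7B) changed sign under some alternative. In all, 78 of 120 called genes kept it in every fit without 1 library.

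The lineage difference by time had 0 calls under every alternative run. By animal it had 123 with DESeq2 and 0 to 795 without 1 library. The 12 calls for memory minus naive became 32 with no low-count filter, 176 with DESeq2, 1 with no replicate block and 1 without the RhDBCb after libraries, and 0 to 44 without 1 library. The causes were not tested. On simulated counts 48% of 2-fold lineage differences were recovered, so a gene that was not called may still differ by that much.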
